A study of Homo sapiens with 8 samples.

Results

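IMR90-hTERT cells with both bleomycin treatment and an induced YAP transgene were set against the same line growing without either treatment. The question was which genes stood at the untreated level, which stayed changed and which lay on the other side of it. The comparison rests on 4 of the 8 RNA-seq libraries of the series, 2 of senescent cells with doxycycline and 2 of untreated proliferating cells, and the 2 libraries of senescent cells without doxycycline give the shift from which a return or an overshoot is read. All 17155 genes tested were compared between these groups. Only genes that bleomycin alone moved past the test and by more than 2-fold were placed as returned, changed or overshot.

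IMR90 is a line of human fetal lung fibroblasts, here immortalised with telomerase (hTERT) and grown in 3% oxygen. Every group carries a doxycycline-inducible pInducer20 vector for N-terminally Flag-tagged YAP5SA, a form of YAP in which 5 serines are changed so that the Hippo kinases cannot hold it back. Senescent cells with doxycycline received 10 ug/ml bleomycin for 24 h, were collected 9 days after it and had 1 ug/ml doxycycline for 11 days. The 11 days are longer than the 24 h and the 9 days together, so doxycycline began before bleomycin unless it ended before collection. Words such as returned, moved back and overshot therefore describe levels between groups and not a reversal in time. Senescent cells without doxycycline received the same bleomycin, proliferating cells with doxycycline the same doxycycline, and untreated proliferating cells neither. No group had doxycycline without the transgene, so effects of the drug itself and of YAP5SA cannot be told apart. The labels do not say that the 2 libraries of a group came from separate cultures, so p-values measure only the spread between these libraries, which may be technical.

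Bleomycin breaks DNA, and cells that cannot repair the breaks leave the cell cycle for good through p53, the CDK inhibitors p21 and p16, and the repression of E2F targets. Senescent fibroblasts then secrete cytokines, proteases and growth factors, known as the senescence-associated secretory phenotype, and can turn on interferon-stimulated genes when DNA reaches the cytosol and is sensed by cGAS and STING. YAP is a transcriptional coactivator without a DNA-binding domain of its own, which acts mainly through TEAD factors on genes of growth, adhesion and matrix, and the Hippo kinases LATS1 and LATS2 keep it out of the nucleus.

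Library totals lay between 33627708 and 39692162 counted reads, and levels below are CPM, counts for every 1000000 reads counted, after scaling with the trimmed mean of M-values. YAP1 itself had 291 and 287 CPM in senescent cells with doxycycline, 190.3 and 223 CPM in senescent cells without it and 198 and 195 CPM in untreated cells. Its net log2 change was 0.55 (adjusted p = 0.000244, edgeR), and reads of the transgene, if they are counted, are part of it. In proliferating cells YAP1 had 190.2 and 238 CPM with doxycycline, and that difference from untreated cells did not pass the test. Of 14 fibroblast markers 13 were detected, and MEOX2 was at 0 in all 4 libraries. Their summed level was 12786 and 15235 CPM in senescent cells with doxycycline, against 27126 and 26932 CPM in untreated cells. Epithelial markers summed to 638 and 587 CPM in senescent cells with doxycycline, against 213 CPM in each untreated library, with KRT8 and KRT18, keratins that overlap each other in the annotation, making up nearly all of it. KRT5 was at 0 in all 4 libraries, and EPCAM, CLDN3, GRHL2 and ESRP1 had too few counts to be tested. Endothelial markers summed to 118 and 126 CPM in senescent cells with doxycycline, against 85.1 and 87.2 CPM in untreated cells, and EMCN and ERG were at 0. Leukocyte markers, nearly all of it CD68, summed to 65.4 and 65.0 CPM in senescent cells with doxycycline, against 73.1 and 69.8 CPM in untreated cells, with CD3D and TYROBP at 0. Neuronal and glial markers, most of it TUBB3, summed to 45.3 and 51.1 CPM in senescent cells with doxycycline, against 97.4 and 98.0 CPM in untreated cells, with NEFM at 0. The part of other cell types in the results below was not tested. In such bulk samples fewer cells of a type and less RNA per cell cannot be told apart.

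The 2 treatments together moved most of the transcriptome. The test was edgeR's quasi-likelihood test with Benjamini-Hochberg adjustment over the 17155 genes, at an adjusted p of 0.05, and a gene past it is called below. Against untreated cells 10467 genes were called in senescent cells with doxycycline, 61.0% of those tested, of which 5251 were higher (30.6%) and 5216 lower (30.4%). Counts of gene lists below are to be read against these shares. More than 2-fold changes among them numbered 2500 higher (14.6%) and 1802 lower (10.5%). The median net change over all genes tested was 0.00 on the log2 scale, so a level that did not move in CPM is one that kept its share of the counted RNA.

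Bleomycin alone moved 3839 genes by more than 2-fold with a call, 22.4% of those tested, 2075 higher and 1764 lower. Each of them was placed by its net change, and the placing is a description with no test of its own, since the net change and the bleomycin change share the untreated libraries, and the bleomycin change shares the senescent libraries with the doxycycline change, in which 46.3% of all genes were called. A gene counts as returned where the 90% interval of its net change lies within 1.5-fold of the untreated level. That held for 201 of the shifted genes (5.24%), 140 that bleomycin had raised and 61 that it had lowered. A gene counts as overshot where the net change was called on the other side of the untreated level and its interval did not lie wholly within 1.5-fold, which held for 63 (1.64%), 31 raised and 32 lowered by bleomycin.

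The other shifted genes fell into further classes. Doxycycline moved 751 back part of the way (19.6%), with calls for both the net change and the doxycycline change. A further 1478 stayed called on the bleomycin side with no call for doxycycline (38.5%), and doxycycline moved 748 further from the untreated level (19.5%). In all 2977 genes, 77.5% of those shifted, were still called on the side to which bleomycin had moved them. For 598 (15.6%) the net change was neither called nor tight enough to be placed. The median log2 change in the raised genes was 1.5 in senescent cells with doxycycline, against 1.77 with bleomycin alone, and in the lowered genes -1.26, against -1.52.

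The count of returned genes follows the margin, with 682 at a margin of 2-fold, and detection limits the placing as well. Returned genes had a median mean log2 CPM of 4.13, against 0.91 for genes that stayed and -0.91 for those not placed. Of the 201 returned genes 59 were still called in the net test with changes inside 1.5-fold, and 79 had CPM values that overlapped between senescent cells with doxycycline and untreated cells.

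**Figure D1:**
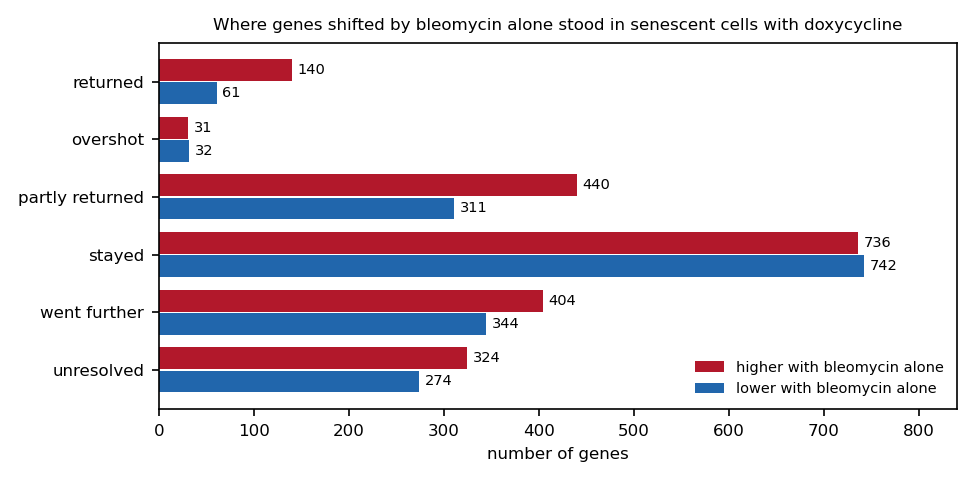
Number of genes in each class among the 3839 genes that bleomycin alone moved by more than 2-fold with a call, drawn as bars by the direction of the bleomycin change (red higher, blue lower). The largest class is the one that stayed, with 736 raised and 742 lowered genes, and the smallest the one that overshot, with 31 and 32.

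The 8 largest net falls at a mean log2 CPM of at least 3 were all in genes of mitosis. All 30 mitotic genes were lower in senescent cells with doxycycline, with a median net log2 change of -4.04, against -3.32 with bleomycin alone and 0.00 over all genes. Of these 24 went further, 6 stayed and none came back, beside 19.5% further and 42.1% stayed among all genes that bleomycin lowered. Over all genes tested 30.4% were called lower. PLK1, the kinase that drives entry into and passage through mitosis, had 2.85 and 3.24 CPM in senescent cells with doxycycline, 7.22 and 6.2 CPM in senescent cells without it and 140.3 and 135 CPM in untreated cells. Its 2 doxycycline libraries lay below both senescent libraries, and these lay below both untreated ones, without overlap. The net change of PLK1 was -5.50 with a standard error (SE) of 0.11, or 45.2-fold lower (adjusted p = 8.99e-15, edgeR).

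Several of the deepest falls were in the machinery of spindle and cytokinesis. KIF20A, a kinesin of the central spindle, had 2.95 and 2.66 CPM in senescent cells with doxycycline, against 124 and 118 CPM in untreated cells. DLGAP5, a spindle assembly factor, had 2.22 and 2.85 CPM in senescent cells with doxycycline, against 95.4 and 91.5 CPM in untreated cells. BIRC5, the survivin subunit of the chromosomal passenger complex, had 3.82 and 4.87 CPM in senescent cells with doxycycline, against 151 and 151 CPM in untreated cells. These 3 genes and TROAP, KIF18B, PIMREG and CDC20 were chosen for lack of overlap between the groups compared. Their net log2 change ran between -5.03 for CDC20 and -5.56 for TROAP, the largest of these falls. CDC20, the activator of the anaphase-promoting complex, had 5.32 and 5.73 CPM in senescent cells with doxycycline, 6.16 and 7.78 CPM in senescent cells without it and 183 and 178 CPM in untreated cells. MKI67, the proliferation antigen Ki-67, had 9.32 and 10.5 CPM in senescent cells with doxycycline, 24.1 and 34.4 CPM in senescent cells without it and 270.4 and 273 CPM in untreated cells, so that doxycycline took it 2.95-fold below the senescent level (adjusted p = 3.00e-05, edgeR). CKAP2L, a spindle protein, likewise fell with doxycycline in senescent cells, with a log2 change of -1.61.

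For other mitotic genes no doxycycline change was called. NEK2, a centrosome kinase, had 1.71 and 1.65 CPM in senescent cells with doxycycline, 1.82 and 2.40 CPM in senescent cells without it and 40.0 and 39.5 CPM in untreated cells. AURKB, the kinase of the chromosomal passenger complex, and CCNB2, a mitotic cyclin, had net log2 changes of -4.27 and -3.95 with no call for doxycycline. CDKN3, a phosphatase that acts on CDKs, stood at -4.12, with a doxycycline change of -0.38 (adjusted p = 0.061, edgeR). PRC1-AS1, whose exons overlap PRC1 on the other strand, stood at -3.99 beside -3.86 for PRC1, which went further, and the strand setting of the counting is not given in the sources used here. The doxycycline change of PRC1-AS1 was -0.57 (adjusted p = 0.0523, edgeR), and CDKN3 and PRC1-AS1 kept their class in 11 and 10 of 18 alternatives.

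The promoters of mitotic genes are known for a CHR element, to which the DREAM complex binds when cells leave the cycle, and for CCAAT boxes bound by NF-Y. In RefSeq promoters (GRCh38.p14, 250 bases before to 50 after each gene's start, both strands), the CHR letters TTTGAA stood in 68.0% of the 25 mitotic promoters found, against 15.4% of all 27305 promoters and 10.3% of the 12072 of genes tested. CCAAT stood in 80.0% of them, against 35.7% and 35.9%, and the letters of the 4 motifs searched do not contain one another. Among the genes that bleomycin lowered, TTTGAA stood in 31.6% of 269 promoters of genes that went further, in 14.5% of 518 that stayed, in 10.8% of 231 that partly returned and in 2.27% of 44 that returned. Outside the lowered genes it stood in 35.3% of the 17 promoters of raised genes that overshot. The lowered genes that went further include 24 of the mitotic list, so their share is not separate from that of the list. A match is a description of the letters and not of a bound site. The lines below show 1 match to the CHR letters in capitals, the last before the gene's start, with up to 30 bases on each side. They are on the strand of the gene, for 3 genes that went further and for CCNB2, which stayed. CDC20 and TOP2A had 2 matches each before the start. In TOP2A, the topoisomerase that untangles sister chromatids, the letters are on the other strand and read TTCAAA.
PLK1: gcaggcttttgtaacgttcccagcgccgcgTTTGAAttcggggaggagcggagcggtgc
CDC20: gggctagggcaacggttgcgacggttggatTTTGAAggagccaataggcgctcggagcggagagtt
TOP2A: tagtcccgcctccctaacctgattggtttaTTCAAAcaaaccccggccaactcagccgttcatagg
CCNB2: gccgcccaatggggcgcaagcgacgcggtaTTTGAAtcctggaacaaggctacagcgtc
These windows are chr16:23678830-23678888 on the plus strand for PLK1, chr1:43358886-43358951 on the plus strand for CDC20, chr17:40418012-40418077 on the minus strand for TOP2A and chr15:59105087-59105145 on the plus strand for CCNB2.

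DNA replication genes were all lower as well, 30 of 30, beside 30.4% of all genes. The median net log2 change of the 30 was -2.80, against -2.52 with bleomycin alone. Among the 30 replication genes 14 went further, 13 stayed and 3 partly returned, beside 19.5%, 42.1% and 17.6% of all genes that bleomycin lowered. RRM2, the small subunit of ribonucleotide reductase, had 23.2 and 26.6 CPM in senescent cells with doxycycline, 56.6 and 74.1 CPM in senescent cells without it and 428 and 433 CPM in untreated cells, and the groups did not overlap. MCM10, TK1 and GINS2, a replication initiator, thymidine kinase and a helicase subunit, had the next largest falls, with net log2 changes of -3.92, -3.91 and -3.71. MCM2, a subunit of the replicative helicase, was among the 3 that moved back, with 14.2 and 14.8 CPM in senescent cells with doxycycline, 10.2 and 12.9 CPM in senescent cells without it and 106 and 101 CPM in untreated cells. That move was 0.33 on the log2 scale (adjusted p = 0.0193, edgeR) and left MCM2 7.15-fold below the untreated level. MCM6 and GINS3 moved back by 0.38 and 0.63. DTYMK, which makes dTDP for DNA synthesis, moved back by 0.27 and remained 5.57-fold below untreated cells. MCM2 shares exon sequence with TPRA1, and GINS2 with GSE1, each on the other strand.

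Regulators of the arrest split. CDKN1A, the p53 target p21, had 1138 and 1145 CPM in senescent cells with doxycycline, 1712 and 1531 CPM in senescent cells without it and 325 and 323 CPM in untreated cells, so that it partly returned. CDKN2A, the locus of p16 and ARF, had 50.5 and 54.8 CPM in senescent cells with doxycycline, 32.4 and 25.9 CPM in senescent cells without it and 11.6 and 11.6 CPM in untreated cells, and doxycycline raised it further by 0.85 (adjusted p = 2.66e-05, edgeR). CDKN2B, the neighbouring p15 gene, instead fell with doxycycline, to 9.65 and 9.31 CPM in senescent cells with doxycycline, against 20.2 and 18.3 CPM in senescent cells without it and 4.64 and 3.98 CPM in untreated cells. CCND2, a D-type cyclin, had 7.49 and 6.35 CPM in senescent cells with doxycycline, 7.36 and 5.14 CPM in senescent cells without it and 0 and 0.0501 CPM in untreated cells. With 521 counts over the 2 libraries of senescent cells with doxycycline and 2 over the untreated ones, the ratio of CCND2 was 281, with a counting interval of 77.4 to 2325 at 95%. CCND2 thus stayed at the senescent level, and its senescent libraries overlapped with and without doxycycline. E2F8, a repressor of the E2F family, went further down, with 0.382 and 0.308 CPM in senescent cells with doxycycline, 0.868 and 1.34 CPM in senescent cells without it and 11.4 and 10.8 CPM in untreated cells. E2F2, an activator of that family, had 0.356 and 0.168 CPM in senescent cells with doxycycline, against 7.57 and 6.59 CPM in untreated cells, and CDKN2C, the inhibitor p18, had a net log2 change of -3.88. RB1 and CCND3 were not called in the net test. Of 19 genes of this group tested 7 were higher, 9 lower and 3 not called, beside 30.6% higher and 30.4% lower over all genes.

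Among 25 p53 target genes 20 were higher, 4 lower and 1 not called, with a median net log2 change of 0.65, against 0.81 with bleomycin alone and 30.6% of all genes called higher. BTG2, an antiproliferative factor, had 17.6 and 17.0 CPM in senescent cells with doxycycline, 30.5 and 26.4 CPM in senescent cells without it and 2.29 and 2.98 CPM in untreated cells. GDF15, a stress-induced secreted factor, had 31.1 and 26.4 CPM in senescent cells with doxycycline, 92.3 and 67.0 CPM in senescent cells without it and 7.49 and 8.32 CPM in untreated cells. Both moved back with doxycycline and stayed above every untreated library. RRM2B, the p53-inducible subunit of ribonucleotide reductase, TNFRSF10B, the death receptor DR5, and SESN1 and TIGAR stayed, with net log2 changes of 1.82, 1.51, 1.16 and 1.14. GADD45A went further, to 149 and 123 CPM in senescent cells with doxycycline, against 105 and 87.8 CPM with bleomycin alone and 41.5 and 45.2 CPM in untreated cells. BAX, which permeabilises mitochondria, was 1.31-fold lower than in untreated cells.

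Genes of the nuclear lamina and chromatin were lower in all 16 cases, beside 30.4% of all genes. The median net log2 change of the 16 was -2.28, against -2.23 with bleomycin alone. LMNB1, lamin B1, whose loss marks senescence, had 4.76 and 4.98 CPM in senescent cells with doxycycline, 6.80 and 9.27 CPM in senescent cells without it and 126 and 125 CPM in untreated cells. The doxycycline libraries were the lowest of the series for LMNB1. HMGB2, a chromatin-bending protein, and UHRF1, which guides DNA methylation, went further, with doxycycline changes of -0.34 and -0.33, and UHRF1 kept this class in 10 of 18 alternatives. LBR, the lamin B receptor, moved the other way, with 45.6 and 43.3 CPM in senescent cells with doxycycline, 16.6 and 19.5 CPM in senescent cells without it and 90.4 and 88.4 CPM in untreated cells, so that it partly returned. TMPO, which encodes the LAP2 proteins of the inner nuclear membrane, moved back by 0.28 and remained 6.89-fold below untreated cells. EZH2 and SUV39H1, histone methyltransferases, stayed, with doxycycline changes of 0.00 and 0.04 that were not called.

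Interferon-stimulated genes partly returned almost without exception. Of 38 tested, 34 were higher than in untreated cells, 1 lower and 3 not called, beside 30.6% higher and 30.4% lower over all genes. The median net log2 change of the 38 was 2.23, against 3.81 with bleomycin alone. Of the 36 that bleomycin had raised by more than 2-fold, 33 partly returned, 2 returned and 1 could not be placed, beside 19.6% partly returned among all shifted genes. At the median 57.1% of their log2 shift remained. OAS2, which makes the 2-5A that activates RNase L, had 26.0 and 25.1 CPM in senescent cells with doxycycline, 166 and 173 CPM in senescent cells without it and 0.708 and 0.802 CPM in untreated cells. MX2, an antiviral GTPase, had 9.29 and 9.71 CPM in senescent cells with doxycycline, 87.7 and 85.9 CPM in senescent cells without it and 0.0976 and 0.426 CPM in untreated cells. BST2, tetherin, which holds budding virus at the membrane, had 28.2 and 23.1 CPM in senescent cells with doxycycline, 323 and 243 CPM in senescent cells without it and 0.635 and 1.03 CPM in untreated cells. The doxycycline libraries lay between the other pairs in all 3, without overlap, and the net changes were 5.08, 5.17 and 4.95 (adjusted p = 1.02e-13, 1.24e-10 and 2.46e-08, edgeR).

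OAS1, of the same family as OAS2, had the largest called net change of the group, with 18.2 and 14.0 CPM in senescent cells with doxycycline, 93.1 and 94.3 CPM in senescent cells without it and 0.146 and 0.15 CPM in untreated cells. IFI6, a mitochondrial protein against apoptosis, had 338 and 348 CPM in senescent cells with doxycycline, 1069 and 963 CPM in senescent cells without it and 19.3 and 20.5 CPM in untreated cells. STAT2, which carries the interferon signal to the nucleus, had 131 and 129 CPM in senescent cells with doxycycline, 176 and 208 CPM in senescent cells without it and 87.0 and 89.1 CPM in untreated cells, a net log2 change of 0.56. GBP1, an interferon-induced GTPase, returned, with 72.2 and 62.7 CPM in senescent cells with doxycycline, 199.6 and 197 CPM in senescent cells without it and 85.9 and 86.8 CPM in untreated cells, a net change of -0.36 that was called below the untreated level and inside 1.5-fold. IFI35 returned as well, at 0.21, and ISG20 could not be placed, at 0.68. IFI27 had 0 counts in both untreated libraries and 11.3 and 0.196 CPM in senescent cells with doxycycline, at least 162-fold higher against 3 counts over the untreated pair. It rested on 1 library and was not called (adjusted p = 0.224, edgeR). IFIT2 and LIPA, and RSAD2 and CMPK2, overlap in exons on opposite strands.

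The interferon-stimulated response element (ISRE), bound by IRF9 and other IRFs, is the sequence by which these genes are known. Its core, GAAA repeated after any 2 bases, stood in 63.3% of 30 interferon-stimulated promoters found in RefSeq, against 3.65% of all promoters and 2.97% of those of genes tested. Among genes that bleomycin raised, it stood in 10.1% of 328 promoters of genes that partly returned, 2.97% of 101 that returned, 4.62% of 476 that stayed, 3.62% of 276 that went further and 5 of 17 that overshot, or 29.4%. The genes that partly returned include 33 of the interferon-stimulated list, so their share is not separate from that of the list. The lines below show 1 match to the ISRE letters in capitals, the last before the gene's start, with 30 bases on each side. They are on the strand of the gene. They cover 3 genes that partly returned and GBP1, which returned and in which the letters are on the other strand. Before the start IFI6 had 3 matches and ISG15 and BST2 had 2 each, so further matches are left in lower case.
IFI6: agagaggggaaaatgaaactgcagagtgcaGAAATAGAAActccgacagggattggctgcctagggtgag
ISG15: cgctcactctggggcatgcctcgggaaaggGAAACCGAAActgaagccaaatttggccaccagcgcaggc
BST2: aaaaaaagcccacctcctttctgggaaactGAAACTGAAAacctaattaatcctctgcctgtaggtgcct
GBP1: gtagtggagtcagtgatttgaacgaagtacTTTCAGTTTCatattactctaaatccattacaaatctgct
These windows are chr1:27672246-27672315 on the minus strand for IFI6, chr1:1013360-1013429 on the plus strand for ISG15, chr19:17405715-17405784 on the minus strand for BST2 and chr1:89065296-89065365 on the minus strand for GBP1.

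Of 12 genes tested that sense nucleic acids upstream of this response, 7 were lower, 3 higher and 2 not called, beside 30.4% lower and 30.6% higher over all genes, with a median net log2 change of -0.69, against 0.37 with bleomycin alone. CGAS, the sensor of cytosolic DNA, had 4.13 and 3.78 CPM in senescent cells with doxycycline, 4.28 and 3.86 CPM in senescent cells without it and 8.74 and 9.32 CPM in untreated cells, a net change of -1.19, against -1.15 with bleomycin alone. IKBKE, a kinase that activates IRF3, had 8.84 and 8.39 CPM in senescent cells with doxycycline, 24.3 and 26.7 CPM in senescent cells without it and 23.1 and 22.2 CPM in untreated cells, lower in the doxycycline libraries than in any other shown. TLR3, a sensor of double-stranded RNA, overshot, with 0.356 and 0.196 CPM in senescent cells with doxycycline, 1.82 and 1.76 CPM in senescent cells without it and 0.708 and 0.626 CPM in untreated cells. IRF3 and MAVS were lower, with net log2 changes of -0.90 and -0.73, and STING1 was not called (net -0.08). SAMHD1 and EIF2AK2, which are interferon-stimulated themselves, partly returned and remained higher by 1.16 and 1.00. IFI16 returned.

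In the presentation of peptides on MHC class I, 5 of 12 genes tested were higher, 4 lower and 3 not called, not far from the 30.6% and 30.4% of all genes. B2M, the invariant light chain, had 172 and 148 CPM in senescent cells with doxycycline, 322 and 336 CPM in senescent cells without it and 108 and 106 CPM in untreated cells, and HLA-B and HLA-C, near-identical paralogs whose reads counting can split, remained higher by 2.22 and 0.92. HLA-E, whose product NK cells read through NKG2A, stayed, at 1.55. ERAP2, which trims peptides in the endoplasmic reticulum, passed below the untreated level, with 30.9 and 32.6 CPM in senescent cells with doxycycline, 123 and 122 CPM in senescent cells without it and 81.6 and 81.2 CPM in untreated cells. TAP1 was not called, with 4.38 and 5.62 CPM in senescent cells with doxycycline, against 0.0732 and 2.83 CPM in untreated cells.

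Cytokines and chemokines of the secretory phenotype also partly returned in most cases. Of 18 tested 16 were higher and 2 lower, beside 30.6% and 30.4% of all genes. The median net log2 change of the 18 was 2.51, against 5.44 with bleomycin alone. It was 2.47 where genes at 0 in untreated cells are held at their bound. Of the 17 shifted, 13 partly returned, 1 overshot, 1 stayed and 2 went further. Among all shifted genes the shares were 19.6%, 1.64%, 38.5% and 19.5%. IL6 had 89.1 and 60.0 CPM in senescent cells with doxycycline, 733 and 554 CPM in senescent cells without it and 27.6 and 28.5 CPM in untreated cells. CXCL8, the neutrophil chemokine IL-8, had 321 and 239.9 CPM in senescent cells with doxycycline, 1222 and 831 CPM in senescent cells without it and 19.4 and 17.1 CPM in untreated cells. IL1A, the membrane-bound interleukin at the head of this response, had 20.8 and 16.4 CPM in senescent cells with doxycycline, 133 and 84.8 CPM in senescent cells without it and 0.61 and 0.326 CPM in untreated cells. IL1B had 31.8 and 22.0 CPM in senescent cells with doxycycline, 145 and 104 CPM in senescent cells without it and 2.47 and 1.88 CPM in untreated cells. In all 4 the doxycycline libraries were below the senescent and above the untreated ones. IL6 ended closest to untreated cells of these, 2.66-fold higher (adjusted p = 0.00165, edgeR), and CXCL8 remained 15.4-fold higher (adjusted p = 1.02e-05).

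CCL20, a chemokine for lymphocytes and dendritic cells, partly returned, with 7.51 and 6.99 CPM in senescent cells with doxycycline, 14.9 and 9.21 CPM in senescent cells without it and 0 and 0.1 CPM in untreated cells. LIF, a cytokine of the IL-6 family, overshot, with 17.5 and 21.5 CPM in senescent cells with doxycycline, 92.4 and 90.1 CPM in senescent cells without it and 36.0 and 33.0 CPM in untreated cells, a net change of -0.82 (adjusted p = 4.79e-06, edgeR). CXCL12, which holds cells that carry CXCR4, went further down, with 0.458 and 0.475 CPM in senescent cells with doxycycline, 2.80 and 2.95 CPM in senescent cells without it and 8.52 and 8.37 CPM in untreated cells. CCL26, an eotaxin, went further up, to 2.11 and 1.62 CPM in senescent cells with doxycycline, against 0.868 and 0.578 CPM with bleomycin alone and 0.317 and 0.326 CPM in untreated cells. CXCL5, another neutrophil chemokine, had 7 counts in senescent cells with doxycycline and 0 in untreated cells, at least 2.52-fold higher. CSF3 had 11 counts in senescent cells with doxycycline and 0 in untreated cells, at least 3.95-fold higher.

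**Figure D2:**
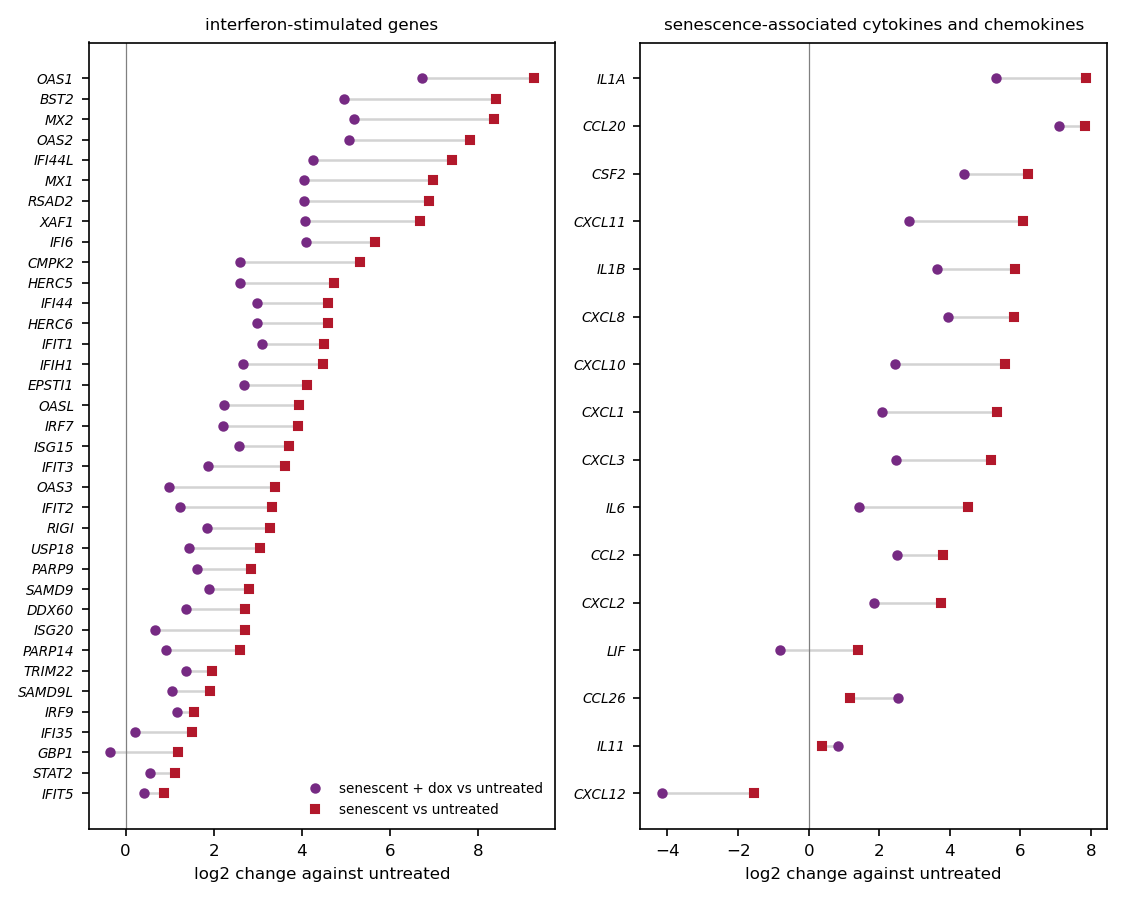
Log2 change against untreated proliferating cells for interferon-stimulated genes (left) and secreted cytokines and chemokines (right), the members drawn having more than 3 counts over the untreated pair, in senescent cells with doxycycline (purple circles) and in senescent cells without it (red squares). Purple lies between red and the grey line at 0 for nearly all genes, past it for GBP1 and LIF, and beyond red for CCL26, IL11 and CXCL12.

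Of 20 NF-kappaB pathway genes 11 were higher, 6 lower and 3 not called, beside 30.6% higher and 30.4% lower over all genes. C3, the central complement component, had 27.9 and 30.5 CPM in senescent cells with doxycycline, 261 and 249 CPM in senescent cells without it and 2.66 and 3.16 CPM in untreated cells, the largest bleomycin shift among partly returned genes at a mean log2 CPM of at least 3. C1S, a protease of the C1 complex, returned, with 58.9 and 61.8 CPM in senescent cells with doxycycline, 259 and 232 CPM in senescent cells without it and 47.0 and 50.4 CPM in untreated cells, inside 1.5-fold though still called (net 0.31, adjusted p = 0.00549, edgeR), and its exons overlap EMG1. SERPING1, the inhibitor of C1S, stayed, with 72.1 and 74.1 CPM in senescent cells with doxycycline, 109 and 77.2 CPM in senescent cells without it and 1.39 and 1.88 CPM in untreated cells. ICAM1 partly returned to 250.3 and 251 CPM in senescent cells with doxycycline, against 712 and 570.3 CPM with bleomycin alone and 21.0 and 22.2 CPM in untreated cells. VCAM1, the other of these leukocyte adhesion receptors, overshot, with 0.866 and 0.28 CPM in senescent cells with doxycycline, 60.2 and 59.8 CPM in senescent cells without it and 9.45 and 11.4 CPM in untreated cells. Both doxycycline libraries of VCAM1 lay below both untreated ones, a net log2 change of -4.15 (adjusted p = 3.11e-05, edgeR). NFKBIA, the inhibitor that NF-kappaB itself induces, returned, at 0.24, while TNFAIP3 and NFKB2 stayed, at 2.98 and 0.97, and NFKBIZ partly returned, to 2.24. Proliferating cells with doxycycline had 0.412 and 0.995 CPM of VCAM1, 0.53 and 0.631 CPM of C3 and 3.85 and 4.42 CPM of SERPING1.

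Of the 4 ligands of NK and T cell receptors that bleomycin shifted, 2 stayed and 2 went further. Among all shifted genes 38.5% stayed and 19.5% went further. LGALS9, the TIM-3 ligand galectin-9, stayed, with 3.16 and 2.63 CPM in senescent cells with doxycycline, 2.13 and 1.79 CPM in senescent cells without it and 0.0732 and 0.326 CPM in untreated cells. ULBP2, a ligand of the NK receptor NKG2D, had 38.7 and 38.8 CPM in senescent cells with doxycycline, 21.2 and 20.1 CPM in senescent cells without it and 8.20 and 8.99 CPM in untreated cells, higher in the doxycycline libraries than in any other shown. ULBP1 also went further, and CD274, which encodes PD-L1, stayed, with 80.4 and 77.1 CPM in senescent cells with doxycycline, 77.7 and 74.7 CPM in senescent cells without it and 25.4 and 23.1 CPM in untreated cells. PVR, the ligand of TIGIT and DNAM-1, had 318 and 333 CPM in senescent cells with doxycycline, against 110.1 and 114 CPM in untreated cells. CD276 and CD47 were lower, with net log2 changes of -0.62 and -0.27. Of 14 such ligands tested 7 were higher, 4 lower and 3 not called, beside 30.6% higher and 30.4% lower over all genes.

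Secreted proteases and their inhibitors were higher in 11 of 18 cases and lower in 6, beside 30.6% and 30.4% of all genes. MMP1, interstitial collagenase, had 764 and 654 CPM in senescent cells with doxycycline, 2643 and 2000.1 CPM in senescent cells without it and 295 and 282 CPM in untreated cells. PLAU, urokinase, which activates plasminogen, overshot, with 731 and 633 CPM in senescent cells with doxycycline, 2432 and 2342 CPM in senescent cells without it and 1053 and 1046 CPM in untreated cells. MMP2, a gelatinase, overshot with 273 and 301 CPM in senescent cells with doxycycline, against 1008 and 819 CPM with bleomycin alone and 425 and 435 CPM in untreated cells. MMP12, macrophage elastase, stayed at 7.87 and 7.33 CPM in senescent cells with doxycycline, against 0.171 and 0.1 CPM in untreated cells. SERPINB2, an inhibitor of urokinase, and TIMP3, an inhibitor of metalloproteases, partly returned, to net log2 changes of 3.97 and 2.23. SERPINB2 kept this class in 9 of 18 alternatives and TIMP3 in all 18. MMP1 and MMP3 overlap WTAPP1, and PLAU overlaps C10orf55, on the other strand.

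Growth factors and IGF-binding proteins were higher in 18 of 25 cases and lower in 5, beside 30.6% and 30.4% of all genes. PAPPA, which cleaves IGF-binding proteins, stayed, with 177 and 219.9 CPM in senescent cells with doxycycline, 197 and 232 CPM in senescent cells without it and 5.74 and 6.19 CPM in untreated cells, and the same held for PAPPA-AS1, whose exons overlap it (net 4.99). IGFBP3 remained at 8341 and 10129.6 CPM in senescent cells with doxycycline, against 641 and 576 CPM in untreated cells. IGFBP5 returned instead, with 1955 and 2066 CPM in senescent cells with doxycycline, 9613 and 9362 CPM in senescent cells without it and 2424 and 2374 CPM in untreated cells. TGFB2 went further, with 197 and 222 CPM in senescent cells with doxycycline, 65.6 and 64.3 CPM in senescent cells without it and 6.86 and 7.84 CPM in untreated cells, as did HBEGF, a ligand of the EGF receptor, which reached 64.1 and 62.1 CPM in senescent cells with doxycycline, against 5.76 and 5.11 CPM in untreated cells. BMP4 returned and BMP2 partly returned, with net log2 changes of -0.05 and 1.86. HGF, hepatocyte growth factor, had 36.4 and 34.2 CPM in senescent cells with doxycycline, 125 and 145 CPM in senescent cells without it and 188 and 188 CPM in untreated cells, a net 5.32-fold fall, against 1.39-fold with bleomycin alone. TGFB1 was lower, at -1.38, and it overlaps HNRNPUL1.

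**Figure D3:**
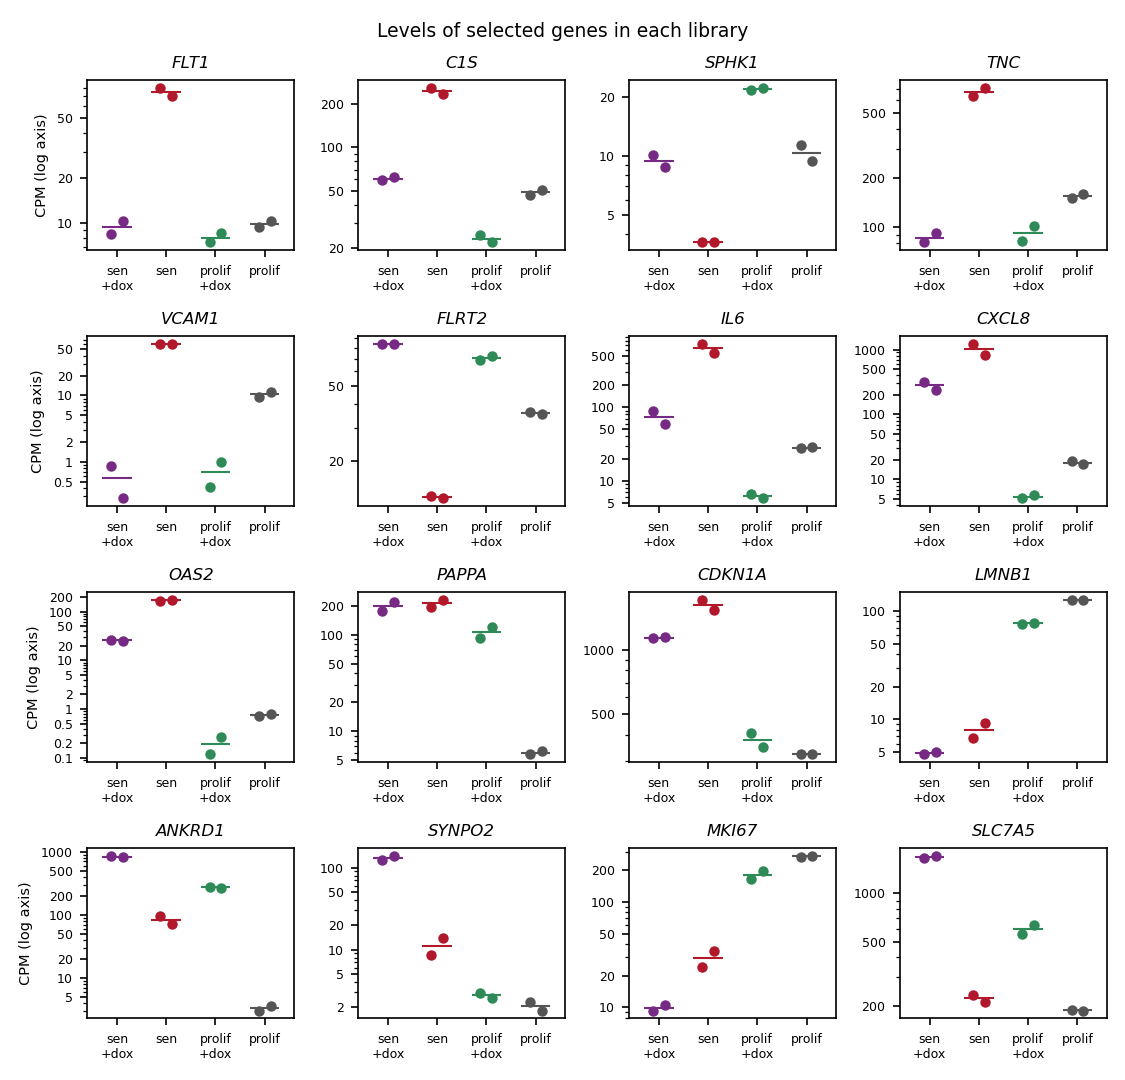
Level of 16 genes in each library, as CPM on a log axis, in senescent cells with doxycycline (purple), senescent cells without it (red), proliferating cells with doxycycline (green) and untreated proliferating cells (grey), with points for the 2 libraries of a group and a line for their mean. FLT1, C1S and SPHK1 sat at or near the grey points in purple, TNC and VCAM1 below and FLRT2 above them, IL6, CXCL8, OAS2 and CDKN1A between red and grey, and ANKRD1, SYNPO2 and SLC7A5 above all other groups.

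FLT1, the VEGF receptor 1, was the returned gene with the largest bleomycin rise at a mean log2 CPM of at least 3. It had 8.51 and 10.4 CPM in senescent cells with doxycycline, 79.7 and 69.8 CPM in senescent cells without it and 9.47 and 10.4 CPM in untreated cells. The doxycycline and untreated libraries overlapped, and the net change was -0.07 with an SE of 0.12 (adjusted p = 0.646, edgeR), against 2.91 with bleomycin alone. POU2F2, the transcription factor OCT2, had 17.4 and 15.1 CPM in senescent cells with doxycycline, 117 and 101 CPM in senescent cells without it and 14.9 and 16.4 CPM in untreated cells. PODN, a small proteoglycan of the matrix, had 8.68 and 8.95 CPM in senescent cells with doxycycline, 34.6 and 27.8 CPM in senescent cells without it and 7.05 and 6.99 CPM in untreated cells, a net log2 change of 0.33 that was called by edgeR (adjusted p = 0.0307) and neither by limma-voom nor by DESeq2. CLMAT3 also returned, but it is an antisense gene over SPARC, whose counts were 2831% of its own and which returned too, at 0.35.

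Among genes that bleomycin had lowered, SPHK1, which makes sphingosine 1-phosphate, had 10.1 and 8.81 CPM in senescent cells with doxycycline, 3.64 and 3.65 CPM in senescent cells without it and 11.3 and 9.42 CPM in untreated cells, and its exons overlap PRPSAP1. AASS, of lysine breakdown, had 15.4 and 18.4 CPM in senescent cells with doxycycline, 5.49 and 6.90 CPM in senescent cells without it and 16.6 and 16.6 CPM in untreated cells, a net change of 0.02. ID2, an inhibitor of differentiation that BMP signals induce, had 23.6 and 28.1 CPM in senescent cells with doxycycline, 13.2 and 8.27 CPM in senescent cells without it and 29.4 and 30.7 CPM in untreated cells. Its doxycycline libraries lay just below the untreated ones. ID3, of the same family, had 75.0 and 65.8 CPM in senescent cells with doxycycline, 32.8 and 23.4 CPM in senescent cells without it and 69.7 and 62.4 CPM in untreated cells, and the doxycycline and untreated libraries overlapped. ID1 moved the same way and partly returned, with 21.6 and 20.8 CPM in senescent cells with doxycycline, 8.57 and 5.96 CPM in senescent cells without it and 52.0 and 45.1 CPM in untreated cells. DOC2A, a calcium sensor of vesicle release whose exons overlap INO80E, also partly returned, to -1.35, against -2.66 with bleomycin alone. EXOSC5, of the RNA exosome, and ECI1, of fatty acid oxidation, returned to within 1.5-fold with net changes of -0.35 and -0.38 that were called by edgeR. SLC7A11, the cystine transporter, returned at 0.11.

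TNC, tenascin C, a matrix protein of wounds, overshot, with 80.9 and 92.0 CPM in senescent cells with doxycycline, 637 and 717 CPM in senescent cells without it and 152 and 159.8 CPM in untreated cells. Both doxycycline libraries lay below both untreated ones, a net change of -0.85 (adjusted p = 4.50e-06, edgeR), against 2.12 with bleomycin alone. POSTN, periostin, at a lower level, overshot further, with 0.458 and 0.531 CPM in senescent cells with doxycycline, 4.42 and 5.59 CPM in senescent cells without it and 1.22 and 1.00 CPM in untreated cells, a net change of -1.17. CTSK, the collagen-degrading cathepsin K, had 12.7 and 11.4 CPM in senescent cells with doxycycline, 54.9 and 51.3 CPM in senescent cells without it and 21.5 and 21.8 CPM in untreated cells. ANPEP, aminopeptidase N, and BTN3A3, a butyrophilin of the family seen by gamma delta T cells, overshot with net changes of -0.76 and -1.13. ACTA2, smooth muscle actin, had 142 and 169 CPM in senescent cells with doxycycline, 617 and 615 CPM in senescent cells without it and 234 and 245 CPM in untreated cells, and it overlaps FAS on the other strand.

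Only 4 overshot genes that bleomycin had lowered reached a mean log2 CPM of 3. FLRT2, a receptor of axon and cell guidance, had 83.7 and 83.6 CPM in senescent cells with doxycycline, 13.2 and 12.7 CPM in senescent cells without it and 36.6 and 35.5 CPM in untreated cells, 2.32-fold above untreated cells (adjusted p = 1.78e-09, edgeR). SH2D5, an adaptor protein, had 13.9 and 14.8 CPM in senescent cells with doxycycline, 2.60 and 2.95 CPM in senescent cells without it and 7.64 and 7.84 CPM in untreated cells. ZNF714, a zinc finger gene, had 17.3 and 20.6 CPM in senescent cells with doxycycline, 3.67 and 4.92 CPM in senescent cells without it and 11.2 and 10.8 CPM in untreated cells, and HIF1A-AS2, an antisense transcript of HIF1A, 88.6 and 103 CPM in senescent cells with doxycycline, 27.0 and 24.0 CPM in senescent cells without it and 63.3 and 68.4 CPM in untreated cells. ZNF714 was called with an adjusted p of 0.0099 (edgeR), against 0.0618 without replicate 2 of senescent cells with doxycycline, 0.0586 without replicate 1 of untreated cells and 0.0721 without their replicate 2.

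The main fibrillar collagens, COL1A1, COL1A2 and COL3A1, fell below the untreated level. Of 23 collagen genes tested 6 were higher, 13 lower and 4 not called, beside 30.6% higher and 30.4% lower over all genes. The collagen median net log2 change was -0.36, against 0.70 with bleomycin alone. COL1A1 had 3249 and 4281 CPM in senescent cells with doxycycline, 11304 and 11735 CPM in senescent cells without it and 11240.0 and 11242 CPM in untreated cells, and COL3A1 248 and 320.4 CPM in senescent cells with doxycycline, 920.4 and 1079.8 CPM in senescent cells without it and 1089 and 1108 CPM in untreated cells. In both, the doxycycline libraries were the lowest of the 6 and did not overlap the others, with net changes of -1.58 and -1.95 (adjusted p = 2.27e-08 and 1.11e-09, edgeR). COL6A1, COL6A2 and COL5A1, raised by bleomycin alone, returned, with net changes of -0.25, -0.34 and -0.10. COL5A3 fell further than any other collagen, at -2.78. COL8A1, a short-chain collagen of vessel walls, went further up, with 666 and 754 CPM in senescent cells with doxycycline, 291 and 305 CPM in senescent cells without it and 63.1 and 61.7 CPM in untreated cells, and COL11A1 reached 8.12 and 12.4 CPM in senescent cells with doxycycline, against 0.392 and 0.395 CPM with bleomycin alone and 0.22 and 0.0752 CPM in untreated cells. COL1A1, COL1A2 and COL3A1 are also fibroblast markers and make up most of the fall in the marker sum given above.

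Other matrix genes went both ways, 15 of 27 higher and 9 lower, beside 30.6% and 30.4% of all genes. MFAP5, a microfibril protein, had 76.6 and 95 CPM in senescent cells with doxycycline, 0.084 and 0 CPM in senescent cells without it and 0 counts in both untreated libraries. That is at least 2302-fold higher against 3 counts over the untreated pair, and proliferating cells with doxycycline had 12.7 and 13.4 CPM. FMOD, fibromodulin, had 27 counts in senescent cells with doxycycline and 0 in untreated cells, at least 9.70-fold higher, and EFEMP1, fibulin-3, was higher by 3.07. LUM, lumican, which organises collagen fibrils, had 210.1 and 195 CPM in senescent cells with doxycycline, 55.3 and 55.8 CPM in senescent cells without it and 35.0 and 34.5 CPM in untreated cells. FN1, fibronectin, stayed, with 9038 and 11266 CPM in senescent cells with doxycycline, 8274 and 9630.0 CPM in senescent cells without it and 2843 and 2749 CPM in untreated cells, and LOX, which cross-links collagen, went further, to 3747 and 4539 CPM in senescent cells with doxycycline, against 513 and 491 CPM in untreated cells. HAS2, a hyaluronan synthase, went further to 57.8 and 73.5 CPM in senescent cells with doxycycline, against 5.88 and 4.94 CPM in untreated cells, while CEMIP, which takes part in breaking hyaluronan down, had 11.2 and 11.2 CPM in senescent cells with doxycycline, against 48.1 and 47.9 CPM in untreated cells. CEMIP overlaps MESD on the other strand. SPARC, LOXL2 and BGN, a collagen-binding protein, a lysyl oxidase and a proteoglycan, returned.

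Contractile genes were lower in 8 of 13 cases and higher in 3, beside 30.4% lower and 30.6% higher over all genes. MYLK, myosin light chain kinase, had 277 and 297 CPM in senescent cells with doxycycline, against 646 and 672 CPM in untreated cells, and ACTG2, CNN1 and LMOD1 were lower, with net log2 changes of -0.90, -0.65 and -0.83. MYOCD, the coactivator that drives this programme, returned, with 29.7 and 25.6 CPM in senescent cells with doxycycline, 82.4 and 99.3 CPM in senescent cells without it and 32.6 and 32.1 CPM in untreated cells. SYNPO2, an actin-bundling protein of striated and smooth muscle, stood apart, with 125 and 138 CPM in senescent cells with doxycycline, 8.51 and 13.8 CPM in senescent cells without it and 2.27 and 1.8 CPM in untreated cells. It was 64.4-fold above untreated cells (adjusted p = 2.98e-08, edgeR), and proliferating cells with doxycycline had 2.97 and 2.60 CPM, a difference from untreated cells that was not called.

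Targets of YAP and TEAD were higher in 15 of 22 cases and lower in 4, beside 30.6% and 30.4% of all genes. The median net log2 change of these targets was 0.64, against 0.20 with bleomycin alone. ANKRD1 (chr10:90912096-90921087, GRCh38.p14), a cardiac ankyrin repeat protein and a standard readout of YAP, had 851 and 822 CPM in senescent cells with doxycycline, 94.6 and 71.7 CPM in senescent cells without it and 3.08 and 3.68 CPM in untreated cells. Proliferating cells with doxycycline had 277 and 266 CPM, so the rank of the groups was senescent with doxycycline, proliferating with it, senescent without it and untreated, none of which overlapped. The net change of ANKRD1 was 7.95 with an SE of 0.14, or 248-fold, the largest rise at a mean log2 CPM of at least 3. TGFB2, IGFBP3 and LATS2, described with their own groups, followed. CCN2, a secreted matricellular protein also known as CTGF, had 1801 and 1777 CPM in senescent cells with doxycycline, 871 and 799.6 CPM in senescent cells without it and 784 and 786 CPM in untreated cells. CCN1, its relative CYR61, had 1048 and 1078 CPM in senescent cells with doxycycline, 696 and 611 CPM in senescent cells without it and 516 and 509.7 CPM in untreated cells. Both were higher with both treatments and moved by less than 1.5-fold with bleomycin alone. FOXF2, ARHGEF17, MYOF and NUAK2, named as YAP targets in other cells, were lower, with net log2 changes of -1.41, -0.73, -0.61 and -0.37.

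TEAD factors bind the letters GGAATG, searched here on both strands. These stood in 43.8% of 16 promoters of YAP target genes found, against 14.0% of all promoters and 11.5% of those of genes tested, in 15.2% of 276 promoters of raised genes that went further and in 18.8% of 101 raised genes that returned. The lines below show 1 match in capitals, the last before the gene's start, with 30 bases on each side. They are on the strand of the gene, for the target with the largest rise and for CCN2. Before the start ANKRD1 had 2 matches and CCN2 had 3, so further matches are left in lower case or outside the window.
ANKRD1: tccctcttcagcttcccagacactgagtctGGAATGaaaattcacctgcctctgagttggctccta
CCN2: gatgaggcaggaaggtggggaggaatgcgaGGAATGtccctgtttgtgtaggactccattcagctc
These windows are chr10:90921180-90921245 on the minus strand for ANKRD1 and chr6:131951432-131951497 on the minus strand for CCN2.

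Of 28 genes of the Hippo pathway and TEAD factors 15 were higher, 6 lower and 7 not called. Over all genes 30.6% were higher and 30.4% lower. LATS2, the kinase that phosphorylates YAP, had 244 and 259 CPM in senescent cells with doxycycline, 64.2 and 66.5 CPM in senescent cells without it and 57.2 and 58.0 CPM in untreated cells. AMOTL2, which binds YAP at junctions, had 409 and 409 CPM in senescent cells with doxycycline, 171 and 167 CPM in senescent cells without it and 147 and 144 CPM in untreated cells. WWC1, the scaffold KIBRA, had 37.2 and 35.5 CPM in senescent cells with doxycycline, 10.2 and 10.3 CPM in senescent cells without it and 2.64 and 2.23 CPM in untreated cells. Each had its highest levels in senescent cells with doxycycline, with net changes of 2.13, 1.49 and 3.90 (adjusted p = 5.15e-12, 4.85e-10 and 8.11e-13, edgeR). LATS1 was not called (net 0.07). TEAD1 was higher by 0.69, TEAD2 and TEAD3 were lower, at -1.66 and -0.58, and TEAD4 partly returned to -0.49, against -1.51 with bleomycin alone. WWTR1, which encodes the YAP paralog TAZ, was lower, at -0.27. VGLL3, a TEAD cofactor, was higher by 1.79.

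Of the 8 largest net rises at a mean log2 CPM of at least 3, 7 went further up with doxycycline and SERPING1 stayed. BMPER, a secreted BMP modulator, had 45.8 and 48.7 CPM in senescent cells with doxycycline, 15.5 and 18.1 CPM in senescent cells without it and 0.659 and 0.601 CPM in untreated cells. MAMDC2, a proteoglycan, had 438 and 524 CPM in senescent cells with doxycycline, 30.8 and 25.5 CPM in senescent cells without it and 6.93 and 7.42 CPM in untreated cells. LMCD1, a LIM protein that restrains GATA6, had 167 and 168 CPM in senescent cells with doxycycline, 10.2 and 8.91 CPM in senescent cells without it and 4.15 and 3.83 CPM in untreated cells. None of these overlapped between groups, and doxycycline alone in proliferating cells gave log2 changes of 5.85, 5.25 and 3.54. GALNT15, a glycosyltransferase that starts mucin-type chains, had 133 and 176 CPM in senescent cells with doxycycline, 72.8 and 81.5 CPM in senescent cells without it and 3.39 and 3.08 CPM in untreated cells and was not called with doxycycline in proliferating cells. TRIM55, a muscle ubiquitin ligase, had 191 and 204 CPM in senescent cells with doxycycline, 24.5 and 21.4 CPM in senescent cells without it and 4.95 and 5.16 CPM in untreated cells. PSG2, a pregnancy-specific glycoprotein, went further, at 5.43, and its paralog PSG1 stayed, at 4.23, though reads of this near-identical family can be split by counting. PPP1R3C, which targets a phosphatase to glycogen, stayed with 415 and 452 CPM in senescent cells with doxycycline, 440.5 and 429 CPM in senescent cells without it and 26.9 and 25.4 CPM in untreated cells, and its libraries with and without doxycycline overlapped. Among those that went further down, COLEC12, a scavenger receptor, had 1.32 and 2.1 CPM in senescent cells with doxycycline, 8.65 and 8.97 CPM in senescent cells without it and 17.0 and 19.2 CPM in untreated cells, and PTN, the growth factor pleiotrophin, 11.5 and 10.4 CPM in senescent cells with doxycycline, 48.3 and 42.1 CPM in senescent cells without it and 101 and 108 CPM in untreated cells.

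A further 1293 genes, 7.54% of those tested, were called at more than 2-fold in the net comparison while bleomycin alone left them uncalled or below 1.5-fold. With doxycycline in proliferating cells 467 of them were called in the same direction. That comparison and the net one share the untreated libraries, so this count is not an independent check. In senescent cells 971 were called for doxycycline in the direction of the net change, beside 46.3% of all genes called in either direction. This count follows largely from the rule, since the net change is the bleomycin change plus the doxycycline change in senescent cells. Of the 1293 genes 886 were higher and 407 lower. SLC7A5, the light chain of the LAT1 amino acid transporter, had 1666 and 1705 CPM in senescent cells with doxycycline, 233 and 211 CPM in senescent cells without it, 558 and 635 CPM in proliferating cells with doxycycline and 188 and 186 CPM in untreated cells. It was 9.00-fold above untreated cells (adjusted p = 3.34e-13, edgeR), and its heavy chain partner SLC3A2 was 2.5-fold above them. ZNF185, a LIM protein of actin structures, had 49.8 and 49.6 CPM in senescent cells with doxycycline, 2.41 and 1.73 CPM in senescent cells without it and 1.76 and 1.70 CPM in untreated cells, and SYNPO2L, a paralog of SYNPO2, 97.7 and 94.3 CPM in senescent cells with doxycycline, 4.65 and 3.89 CPM in senescent cells without it and 3.12 and 3.63 CPM in untreated cells. R3HCC1L had 152 and 126 CPM in senescent cells with doxycycline, 20.5 and 21.6 CPM in senescent cells without it and 18.9 and 20.0 CPM in untreated cells, and ZNF431, a zinc finger gene, 60.5 and 74.1 CPM in senescent cells with doxycycline, 7.81 and 7.14 CPM in senescent cells without it and 10.2 and 10.1 CPM in untreated cells. In all 5 the doxycycline libraries were above every other library of the 6 compared. In proliferating cells doxycycline gave log2 changes of 4.47 for ZNF185, 3.77 for SYNPO2L, 1.67 for SLC7A5 and 1.05 for R3HCC1L, and ZNF431 lay between the last 2, all called by edgeR.

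Lower genes of this kind were led by OLFML2A, NPTX1 and HGF, the last given with the growth factors. PCDH18, a protocadherin, had 50.1 and 54.3 CPM in senescent cells with doxycycline, 180.0 and 209 CPM in senescent cells without it and 247 and 256 CPM in untreated cells. CTHRC1, a collagen triple helix protein, had 43.3 and 53.1 CPM in senescent cells with doxycycline, 183 and 179 CPM in senescent cells without it and 229 and 229 CPM in untreated cells. NPTX1, a pentraxin of synapses, had 3.16 and 3.41 CPM in senescent cells with doxycycline, 18.2 and 14.5 CPM in senescent cells without it and 18.3 and 17.4 CPM in untreated cells. OLFML2A, an olfactomedin, had 3.56 and 3.64 CPM in senescent cells with doxycycline, 15.0 and 12.6 CPM in senescent cells without it and 18.8 and 20.9 CPM in untreated cells. In these 4 the doxycycline libraries were the lowest of the 6 compared, without overlap. Doxycycline in proliferating cells gave log2 changes of -1.01 for PCDH18, -0.98 for CTHRC1, -2.07 for NPTX1 and -1.41 for HGF.

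Some genes were not detected in untreated cells. Of 195 tested genes with 0 counts in both untreated libraries 189 were called higher, beside 30.6% of all genes, a share that the filter on low counts favours because such genes passed it through the groups in which they are detected. CDH1, E-cadherin, and KRT14, a keratin of basal epithelium, were among these, with 82 and 77 counts over the 2 libraries of senescent cells with doxycycline, at least 29.5-fold and 27.7-fold higher than 3 counts over the untreated pair. These bounds cover counting error only. EPCAM, the defining epithelial marker, had 4 counts in senescent cells with doxycycline and 2 in untreated cells.

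The 5 lists of metabolic and organelle genes had median net log2 changes between -0.42 and 0.29. Their counts stand beside 30.6% higher and 30.4% lower over all genes. Mitochondrially encoded mRNAs were lower in 9 of 13 cases and higher in none, with a median net log2 change of -0.42, against 0.55 with bleomycin alone. MT-CO1, the catalytic subunit of cytochrome c oxidase, had 5729 and 5350.1 CPM in senescent cells with doxycycline, 12752 and 12429 CPM in senescent cells without it and 12133 and 12452 CPM in untreated cells, a net change of -1.15. MT-CO3 and MT-CO2 stood at -1.32 and -1.22, and these mRNAs made up 3.82% and 3.31% of counts in senescent cells with doxycycline, against 5.59% and 5.94% in untreated cells. Lysosomal genes were higher in 15 of 30 cases and lower in 4, with FUCA1, a fucosidase, at 15.4 and 15.3 CPM in senescent cells with doxycycline, against 0.171 and 0.2 CPM in untreated cells, and GLB1, the beta-galactosidase stained in senescence assays, at 89.6 and 94.8 CPM in senescent cells with doxycycline, against 138 and 126 CPM with bleomycin alone and 69.2 and 67.6 CPM in untreated cells. CTSS, cathepsin S, returned, with 2.42 and 2.04 CPM in senescent cells with doxycycline, 12.6 and 12.1 CPM in senescent cells without it and 1.93 and 2.13 CPM in untreated cells. PSAP, the precursor of the saposins, stayed, at 1.16. Ribosome biogenesis genes were lower in 16 of 26 cases and higher in 3, led by UBTF, a factor of RNA polymerase I, at -1.48, RRP9 at -1.31 and FBL, the methyltransferase fibrillarin, at -1.31. Of 18 genes of the ATF4 programme and serine synthesis 9 were higher and 5 lower, ATF4 itself not being called (net 0.13), ASNS, asparagine synthetase, and VLDLR, a lipoprotein receptor, going further to 3.06 and 3.15, and PSAT1 and PHGDH of serine synthesis standing at 0.90 and -1.01. Of 20 cholesterol synthesis genes 7 were higher and 8 lower, near the 30.6% and 30.4% of all genes, with DHCR7, the last enzyme of the pathway, at 1.75.

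Immediate-early factors of the AP-1 and EGR families were higher in 6 of 14 cases and lower in 6, where 30.6% of all genes were higher and 30.4% lower. EGR2 partly returned, to 4.50, against 5.88 with bleomycin alone. ATF3 stayed, with 42.3 and 31.6 CPM in senescent cells with doxycycline, 35.0 and 35.1 CPM in senescent cells without it and 5.69 and 5.86 CPM in untreated cells, and EGR1 went further down, with 17.6 and 17.2 CPM in senescent cells with doxycycline, 44.7 and 33.4 CPM in senescent cells without it and 102 and 95.4 CPM in untreated cells. FOSL2 rose to 209 and 212 CPM in senescent cells with doxycycline, against 92.4 and 87.3 CPM in untreated cells, and FOSL1 fell to 101 and 111 CPM in senescent cells with doxycycline, against 238 and 228 CPM in untreated cells. Among 15 genes of the TGF-beta and BMP response 7 were higher and 3 lower. ID2, ID3, LTBP1 and LTBP2 returned, 4 of the 10 that bleomycin shifted, beside 5.24% of all shifted genes. BAMBI, a decoy receptor, went further up, at 1.81, and TGFBI partly returned, to 1.23. SMAD6, an inhibitor of BMP signals, went further down, with 3.41 and 3.75 CPM in senescent cells with doxycycline, 5.40 and 5.38 CPM in senescent cells without it and 18.5 and 19.7 CPM in untreated cells. In the BCL2 family 5 of 14 were higher and 3 lower, shares near those of all genes (30.6% and 30.4%), with BCL2L1, the survival factor BCL-XL, at 250.3 and 249.7 CPM in senescent cells with doxycycline, against 169.6 and 157 CPM with bleomycin alone and 117 and 118 CPM in untreated cells. BMF, a killer protein of that family, was lower, at -1.37, and BCL2 itself, with few counts, was not called.

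**Figure D4:**
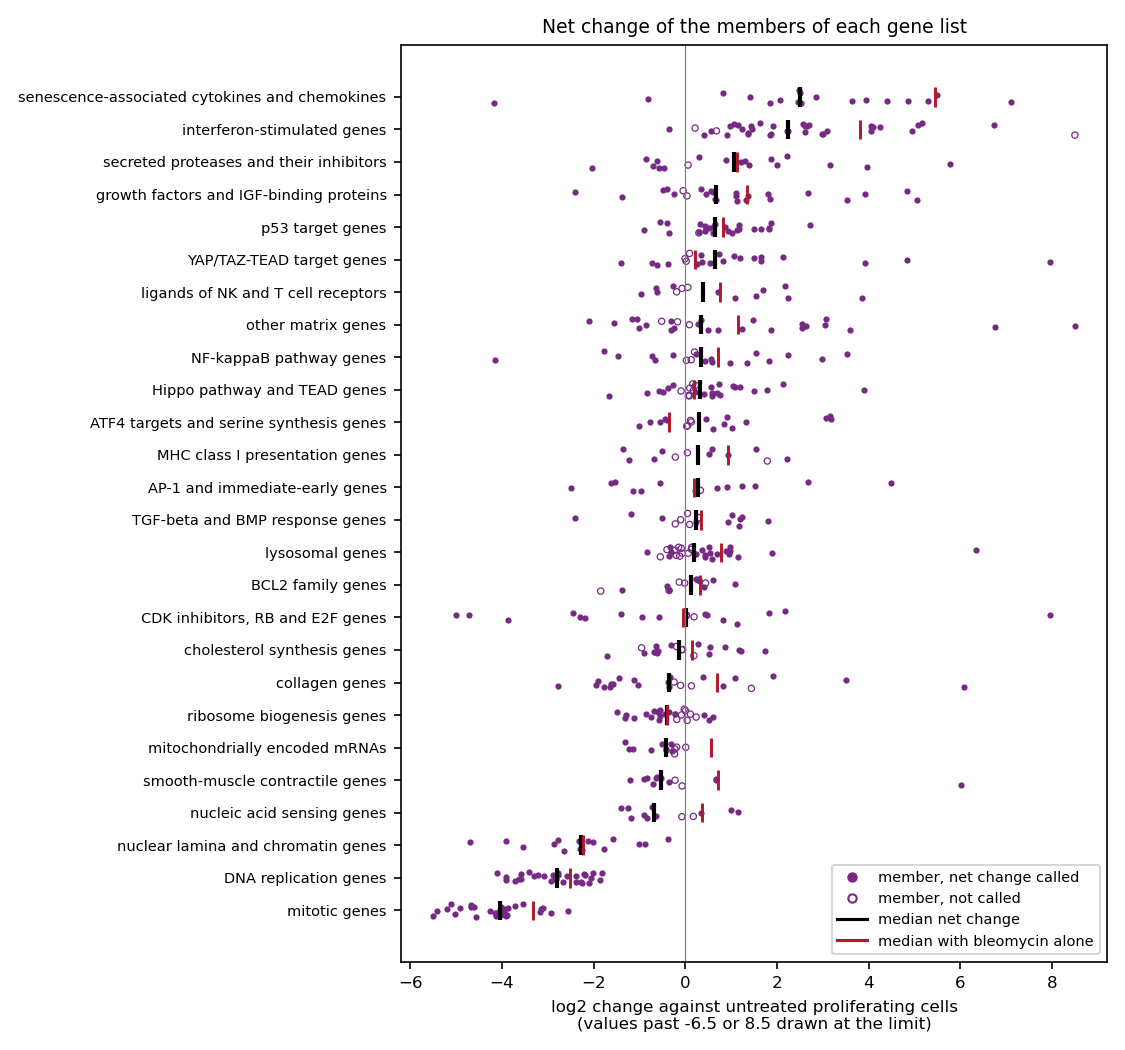
Net log2 change of every tested member of each gene list in senescent cells with doxycycline against untreated cells (filled where called, open where not), with the median net change (black) and the median change with bleomycin alone (red); the vertical spread within a row is only for legibility. Mitotic, replication and lamina genes lie wholly below 0, and for interferon-stimulated genes and cytokines the black line lies at 2.23 and 2.51, against 3.81 and 5.44 for the red one.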

How the data were processed

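Poly(A) RNA of 8 libraries, 2 for each of 4 groups, was sequenced from TruSeq Stranded mRNA libraries on a NovaSeq instrument, per the labels' protocols. The authors deposited 1 table of raw read counts for 54628 genes. Tools listed in the submitters' processing notes are Trimmomatic (0.36), HISAT2 (2.1.0) and featureCounts (1.6.3), with hg38 as build; the annotation and the strand setting of counting are not given in the sources. If counting ignored strand, reads of overlapping genes were shared or dropped. Overlaps are named above for only some of the genes that have them.

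From these counts 17155 genes passing edgeR's filterByExpr were fitted over all 8 libraries (edgeR 4.0.16 in R 4.3.3, TMM, robust quasi-likelihood, 4 residual degrees of freedom, Benjamini-Hochberg adjusted p of 0.05, two-sided). Over all genes the common dispersion equalled a coefficient of variation of 0.0904, and the net log2 change had a median SE of 0.122. Log2 changes of genes near 0 counts depend on the prior count, and bounds were set at 3 counts over a group. Pearson's r of log2 CPM lay between 0.990 and 0.993 within groups, and between 0.920 and 0.921 for senescent cells with doxycycline against untreated cells; replicates differed by more than sampling noise, their chi-square over degrees of freedom being 12.3 for senescent cells with doxycycline and 3.54 for untreated cells.

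The genes named are YAP1, the 8 largest net rises and falls with no overlap between groups, up to 5 per class and direction, all with mean log2 CPM 3 or higher, and members of the gene lists, the 4 furthest from the untreated level first. All 624 genes of 31 lists were found, 15 under another symbol, and 562 were tested. The members and lists were chosen with earlier results of these data known. The labels give no pairing of samples by replicate number, and none was used in the main fit. Alternatives left out each library in turn and changed the normalization, filter, tool (DESeq2 1.42.0, limma-voom in limma 3.58.1), fold, margin and replicate block. Promoter sequences are RefSeq's (GRCh38.p14), found for 12072 of the genes tested, and coordinates are RefSeq's on that build. Python 3.11.15 and matplotlib 3.10.9 made the figures. Results for some list members are not reported here.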

Additional observations from a re-analysis of the deposited data

How the results depend on the processing

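Leaving out each library in turn gave 8755 to 11085 genes called in the net comparison (4333 to 5579 higher, 4406 to 5516 lower), 8263 to 10665 with bleomycin alone and 5718 to 8599 with doxycycline in senescent cells. The classes then held 135 to 233 returned, 44 to 68 overshot, 543 to 803 partly returned, 558 to 767 further, 1381 to 1649 stayed, 544 to 910 unplaced and 1175 to 1672 called with both treatments but not, or by under 1.5-fold, with bleomycin alone; the 910 and 900 unplaced came without replicate 1 and without replicate 2 of senescent cells with doxycycline.

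At a mean log2 CPM of at least 1, 750 stayed, 89 were unplaced and 446 were of the last kind. A test against 1.5-fold called 4823 genes, 2614 higher and 2209 lower. A narrower margin left 41 returned genes, and one of 2-fold gave 682 returned and 477 partly returned. With no fold threshold on the bleomycin change 3035 genes returned, 319 overshot, 1851 went further and 3194 stayed; over 4-fold, 15 returned, 10 overshot, 269 partly returned, 366 went further, 530 stayed and 188 were unplaced. Through 18 settings 61 of 201 returned genes kept their class, 21 of 63 overshot, 355 of 751 partly returned, 312 of 748 that went further and 356 of 1478 that stayed.

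The replicate numbers of titles and descriptions differ, and samples that share a title number correlated at -0.01 to 0.16 in their deviations. With 2 libraries per group this cannot show whether they shared cultures or days. With the title number as a replicate block 10687 genes were called, 5343 higher and 5344 lower, and 208 returned; with the description number 8994 were called, and 153 returned, of which 112 are among the 201. Sign changes were counted only for gene list medians larger than their spread over the 4 pairings of the libraries compared. There were 2, both for the BCL2 family. Its median went to -0.0870 with the description number as a replicate block and to -0.00971 with the 4 libraries compared alone. A further 65 list median values moved by more than that spread. The cause was not tested. Of the 1330 single-gene values 1304 kept their side of the threshold, and the 20 lost calls include PODN, EXOSC5, C1S, ECI1 and ZNF714. The median net log2 change of all genes was 0.03 with DESeq2 size factors and -0.00430 with total counts, against 0.00220 with TMM.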

Other observations

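Of the 195 tested genes with 0 counts in both untreated libraries, 28 also had 0 counts in both libraries of senescent cells without doxycycline, so that they were counted only with doxycycline. They passed the filter on low counts through the groups with doxycycline, so this pattern follows from how they were picked. CLIC5, a chloride intracellular channel protein that is bound to the cortical actin of epithelia, led these by level, with 3.77 and 4.56 CPM in senescent cells with doxycycline and 0.294 and 0.170 CPM in proliferating cells with it. The group also held CCL11, the chemokine eotaxin, LEP, the hormone leptin, and the long noncoding RNA UCA1. Their levels in senescent cells with doxycycline were low, 0.840 and 1.43 CPM for CCL11, 0.662 and 0.699 CPM for LEP and 1.73 and 1.23 CPM for UCA1. These names were chosen after their values were seen.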
